A study of Gossypium hirsutum with 18 samples.

Results

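The genes described here are the LHY, REVEILLE and APRR genes of upland cotton (Gossypium hirsutum), members of the families that make up and surround the plant circadian clock. They were selected by protein name from the authors' deposited tables of genes called different between 2 genotypes, so that measured values chose them. The search found 10 distinct genes of the 11153 distinct genes listed in any table, made up of 4 LHY genes, 3 REVEILLE genes and 3 APRR genes. Of these, 5 lie on chromosomes of the A subgenome and 5 on chromosomes of the D subgenome, since upland cotton carries both ancestral genomes. The names are those of the closest described protein, per the deposited annotation, and mark no tested function in cotton.

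RNA of ovules was sequenced in 18 libraries, with 3 replicates for each of 6 groups. The groups are the genotype Xu142 and the genotype Xu142fl, each at -1, 0 and 1 day post-anthesis (DPA, days from flower opening), and the labels give the treatment of all libraries as unhandled. As background, ovules of Xu142 bear fibers, which grow from single cells of the ovule epidermis, whereas its mutant Xu142fl makes neither lint nor fuzz. The labels name no separate plants and no hour of collection, so the spread between replicates may be technical and the time of day of each library is not known here.

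As background, the clock of a plant is a loop of repressors that peak at successive times of day. LHY and the related CCA1 are MYB-type transcription factors that peak around dawn and repress evening genes, and the pseudo-response regulators, named APRR or PRR, follow through the day and repress LHY and CCA1 in turn. The REVEILLE proteins are MYB-type relatives of LHY, some of which activate evening genes together with LNK coactivators, and REVEILLE 7 is described in Arabidopsis as a clock output factor that responds to phytochrome. No sequence of these genes was given in the sources used here, and none is printed.

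The deposited values are reads per gene divided by 1 factor per library, called normalised reads below. Each day has a table of its own, normalised on its own, which lists only the genes the authors had called. In each listed gene the deposited adjusted p is under 0.05 and the deposited log2 fold change is at least 1 in size. The listed genes held 130502 to 6388114 reads per library, and the member values rest on 5 to 1274 reads at -1 DPA and on 15 to 300 reads at 1 DPA. Ratios below are log2 ratios of group means, Xu142fl over Xu142, with a standard error from the spread among 3 libraries per group, and they are a description, because the same contrast chose the genes.

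At -1 DPA, 8 of the members were listed and all 8 were lower in Xu142fl, namely the 4 LHY genes, the 3 REVEILLE genes and 1 APRR gene. The authors had listed 1.50% of the genes tested that day, and 45.1% of those listed were lower in Xu142fl. At 0 DPA no member was listed, on a day when 2.38% of tested genes were listed and 63.3% of those were lower. At 1 DPA, 5 members were listed, 4 of them lower and 1 higher in Xu142fl. That day 17.6% of tested genes were listed, of which 67.5% were lower. Nothing is read from these shares, since the rule for members used this contrast. In all 8 members at -1 DPA and all 5 at 1 DPA the values of the 2 genotypes did not overlap. The same held for 100% of all listed genes at -1 DPA and 97.6% at 1 DPA, so it sets the members apart from no other listed gene. A gene absent from a table did not meet the authors' criteria that day, and whether it was unchanged or too low to call cannot be told apart.

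The 2 widest differences of any member were in LHY genes, which encode the dawn-phased repressor. Gh_A12G134600 (chromosome A12, 79806591 to 79813351, minus strand, on the authors' build) stood at 631, 435 and 873 normalised reads in the Xu142 libraries at -1 DPA, and at 39.9, 41.7 and 40.8 in the Xu142fl libraries. The lowest Xu142 library lay 10.4-fold above the highest Xu142fl library. The log2 ratio was -3.99 ± 0.28, which left Xu142fl at 6.31% of the Xu142 mean. Gh_D12G134800 (chromosome D12, 42297942 to 42304321, minus strand) gave 540.4, 354 and 605 normalised reads in Xu142 and 52.8, 62.0 and 65.5 in Xu142fl. Its libraries were again far apart, by 5.40-fold at the nearest, with a log2 ratio of -3.06 ± 0.24.

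The other LHY genes differed less between the genotypes. Gh_A12G134700 (chromosome A12, 79822195 to 79830629, minus strand) had the highest level of all members, 1015, 811 and 1224 normalised reads in Xu142 against 310.0, 331 and 358 in Xu142fl. Per kilobase of deposited gene length it stood at 325 normalised reads in Xu142, against 199 for Gh_A12G134600 and 189.6 for Gh_D12G134800. Its log2 ratio was -1.61 ± 0.18, and each Xu142 library lay above each Xu142fl library. Gh_D11G109800 (chromosome D11, 9606909 to 9612514, plus strand) gave 184, 162 and 248 normalised reads in Xu142 and 71.6, 82.3 and 74.0 in Xu142fl. It had the smallest ratio of the 4 LHY genes, -1.38 ± 0.20, with the nearest libraries of the 2 genotypes 1.97-fold apart. In the authors' deposited table the adjusted p-values of the 4 LHY genes at -1 DPA run from 1.44e-57 for Gh_D12G134800 to 8.43e-11 for Gh_D11G109800. The annotation lists a MYB-like DNA-binding domain for 3 of these genes and no domain for Gh_A12G134600.

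All 3 REVEILLE genes carry the name REVEILLE 7 and a MYB-like DNA-binding domain, and all 3 were lower in Xu142fl at -1 DPA. Gh_A07G066700 (chromosome A07, 8452873 to 8455268, plus strand) gave 104.5, 71.4 and 109.5 normalised reads in Xu142 and 27.0, 17.3 and 37.0 in Xu142fl. Gh_D07G066600 (chromosome D07, 7375763 to 7378146, plus strand) gave 52.3, 30.9 and 56.7 in Xu142 and 5.87, 6.10 and 12.3 in Xu142fl. The groups of both genes stayed apart, and the log2 ratios were -1.81 ± 0.35 and -2.52 ± 0.45. The Xu142fl values of Gh_D07G066600 rest on 5, 6 and 13 reads and are the least precise of the members. Gh_D12G292800 (chromosome D12, 62320088 to 62323295, plus strand) gave 68.1, 65.6 and 91.3 normalised reads in Xu142 and 16.4, 29.5 and 26.6 in Xu142fl, a log2 ratio of -1.63 ± 0.28. In the authors' deposited table the adjusted p-values of the REVEILLE genes run from 2.75e-08 to 2.43e-06. No REVEILLE gene was listed at 0 or 1 DPA.

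Among the pseudo-response regulators, 1 was listed at -1 DPA, Gh_A11G108700 (chromosome A11, 10201733 to 10206249, plus strand), named APRR5, which in Arabidopsis represses CCA1 and LHY. It carries a receiver domain and a CCT motif in the deposited annotation. Its values were 61.6, 46.3 and 72.1 normalised reads in Xu142 and 21.1, 18.3 and 17.1 in Xu142fl, with each Xu142 library at least 2.19-fold above the Xu142fl libraries. The log2 ratio was -1.67 ± 0.20. It lies closest to the listing threshold, with a deposited log2 fold change of -1.04 (sign turned to Xu142fl over Xu142) and an adjusted p of 1.21e-05 in the authors' deposited table. Genes just outside the threshold are in none of the tables.

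**Figure D1:**
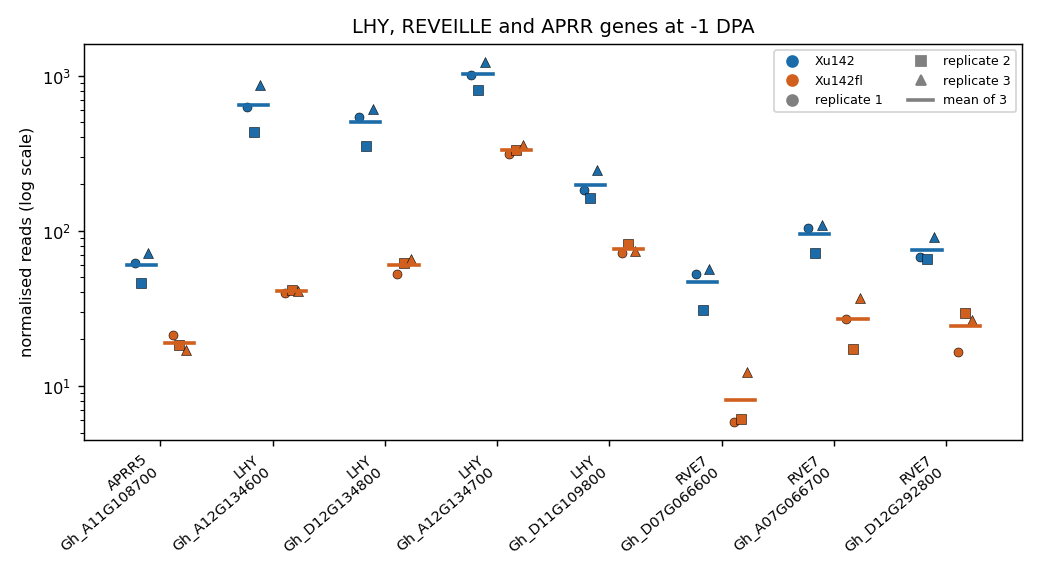
Normalised reads (log axis) of the 8 members listed at -1 DPA, with a point for each library (blue Xu142, orange Xu142fl, marker shape for the replicate) and a bar for the mean of 3. In each gene all Xu142 points lie above all Xu142fl points, with the widest gap for LHY Gh_A12G134600 (log2 ratio -3.99).

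At 1 DPA, 2 of the 4 LHY genes were listed, both lower in Xu142fl. Gh_A12G134600 stood at 160.3, 249.7 and 254 normalised reads in Xu142 and at 29.1, 30.7 and 26.7 in Xu142fl, a log2 ratio of -2.94 ± 0.21. Gh_D12G134800 stood at 119.9, 214 and 202 in Xu142 and at 53.2, 69.7 and 67.5 in Xu142fl, a log2 ratio of -1.49 ± 0.27. The nearest libraries of the genotypes were 5.21-fold apart in the A12 gene and 1.72-fold apart in the D12 gene. APRR5 (Gh_A11G108700) gave 46.5, 80.5 and 76.0 in Xu142 and 15.1, 16.4 and 24.4 in Xu142fl, a log2 ratio of -1.86 ± 0.32, again without overlap. The adjusted p-values of these genes in the authors' deposited table are 1.09e-25, 3.19e-07 and 8.21e-06.

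The remaining members are named APRR2. As background, APRR2 proteins pair a receiver-like domain with a MYB-like DNA-binding domain, lack the CCT motif of the clock PRR proteins and are known from fruit pigmentation rather than from the core clock, and the deposited annotation lists the receiver and MYB-like domains for both cotton genes. They moved in opposite directions at 1 DPA. Gh_A08G183500 (chromosome A08, 110953724 to 110958968, minus strand) fell from 123, 218 and 171 normalised reads in Xu142 to 40.1, 47.1 and 29.5 in Xu142fl, a log2 ratio of -2.13 ± 0.30 and a deposited adjusted p of 2.81e-12 in the authors' deposited table. Gh_D03G190800 (chromosome D03, 52977998 to 52983112, plus strand) rose from 76.5, 73.7 and 74.9 in Xu142 to 147.5, 168 and 170.2 in Xu142fl, a log2 ratio of 1.11 ± 0.07 and an adjusted p of 2.34e-06 in the authors' deposited table. The libraries of the genotypes did not overlap in either gene. These genes lie on chromosomes of different number and form no A and D pair, and no other APRR2 gene was listed.

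**Figure D2:**
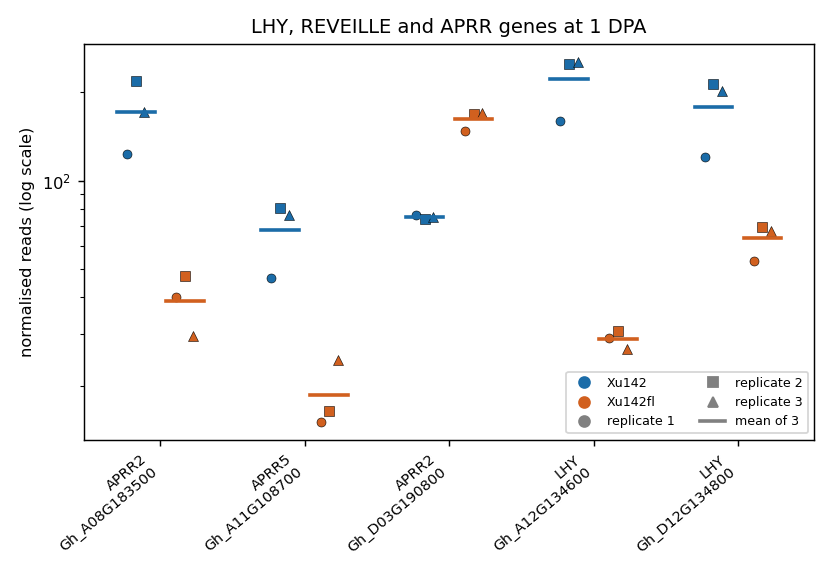
Normalised reads (log axis) of the 5 members listed at 1 DPA, with a point for each library and a bar for the mean of 3 per genotype. In 4 genes all Xu142 points (blue) lie above the Xu142fl points (orange), and in APRR2 Gh_D03G190800 all Xu142fl points lie above, at 147.5 to 170.2 against 73.7 to 76.5.

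Which members were called lower at 1 DPA depended on how the libraries were scaled. Most listed genes were lower in Xu142fl that day, and the median log2 ratio of the listed genes was -1.31 as deposited. When the factors were set from the listed genes instead, that median moved to -0.10 with edgeR's TMM factors and to -0.06 with DESeq2's size factors. Such factors pull the median of the genes they are set from toward no difference. Only called genes could be used, so this rescaling cannot tell which members changed. Over all listed genes it left 2411 called lower with TMM and 2486 with DESeq2's factors, of 7288 listed as lower. With TMM factors 1 of the 4 lower members still passed, LHY Gh_A12G134600, and with DESeq2's factors 2 passed, Gh_A12G134600 and APRR2 Gh_A08G183500. LHY Gh_D12G134800 was then at -0.26 and -0.22 (edgeR's and DESeq2's adjusted p of 1 in both), and APRR5 was at -0.61 and -0.56, with adjusted p-values of 0.664 and 1. At -1 DPA the same scalings moved the median of the listed genes from 1.30 to 1.12 and 0.19. All 8 members passed under both, and with DESeq2's factors their log2 ratios ran from -5.09 (Gh_A12G134600) to -2.49 (Gh_D11G109800). Both scalings lowered the ratios that day and called 393 listed genes lower, as many as the authors had listed as lower. Passing therefore sets the members apart from no other lower gene. APRR2 Gh_D03G190800 at 1 DPA was then at 2.30 and 2.34.

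The 3 members listed on both days can be set side by side, with the limit that each table was normalised on its own. In Xu142 the mean of LHY Gh_A12G134600 was 646 normalised reads at -1 DPA and 221 at 1 DPA, and that of LHY Gh_D12G134800 was 499.9 and 179. In Xu142fl the same genes had means of 40.8 and 28.8 and of 60.1 and 63.5. APRR5 had means of 60.0 and 67.7 in Xu142 and of 18.8 and 18.6 in Xu142fl. The LHY levels of Xu142 at 1 DPA were thus 34.2% and 35.8% of those at -1 DPA. Those of Xu142fl were 70.7% and 105.6%, and no test was made across the tables.

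Comparing A and D copies within a library does not depend on the library factor and is not the contrast that chose the genes. Only copies that were both called on the genotype contrast that day could be compared. Copies were paired by name, chromosome number and nearest identifier number, and their sequence identity could not be checked. If copies are near identical, the authors' counting could split or share their reads, which makes these ratios uncertain. At -1 DPA, LHY Gh_A12G134700 was higher per kilobase than Gh_D12G134800 in 6 of 6 libraries, by 0.66, 0.95 and 0.77 on the log2 scale in Xu142 and by 2.29, 2.16 and 2.19 in Xu142fl. The mean was 1.50 (two-sided exact sign-flip permutation test, p = 0.03125, the smallest that 6 libraries allow). REVEILLE 7 showed the same order, with Gh_A07G066700 above Gh_D07G066600 in 6 of 6 libraries by a mean of 1.33 on the log2 scale (exact p = 0.03125). The differences were 0.96, 1.16 and 0.91 in Xu142 and 2.06, 1.39 and 1.51 in Xu142fl. Adjusted over the 3 pairs that the pairing rule gave, both exact p-values are 0.0469, and adjusted over 4 pairs, with a pair added after the data were seen, both are 0.0625. Neither call therefore holds over all 4 pairs, and the pairs share the D12 gene in part. Each mean pools 2 genotypes of unlike ratio. The test takes the libraries as independent, though the labels name no separate plants.

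At 1 DPA Gh_A12G134700 was not listed, so the rule paired LHY Gh_A12G134600 with Gh_D12G134800. The A partner of the D12 gene thus depended on which genes were listed that day. The genes Gh_A12G134600 and Gh_D12G134800 were also compared at -1 DPA, as the added pair. In Xu142 the A12 gene made up 48.6%, 49.9% and 53.9% of their summed level per kilobase at -1 DPA and 52.0%, 48.6% and 50.4% at 1 DPA. In Xu142fl it made up 38.0%, 35.3% and 33.5% at -1 DPA and 30.7%, 26.3% and 24.2% at 1 DPA. The shares of the 2 genotypes did not overlap on either day, and this difference has no test, since the genotype contrast chose both genes. Over all 6 libraries the mean log2 ratio of the A12 over the D12 gene was -0.40 at -1 DPA (exact sign-flip p = 0.156) and -0.70 at 1 DPA (exact p = 0.188), and neither passed.

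The adjacent LHY genes on A12 lie 8843 bases apart on the same strand and also differed in proportion. The level per kilobase of Gh_A12G134700 exceeded that of Gh_A12G134600 by 0.75 ± 0.21 (SD, n = 3) on the log2 scale in Xu142 and by 3.07 ± 0.09 (SD, n = 3) in Xu142fl. The values were 0.74, 0.95 and 0.54 in Xu142 and 2.99, 3.03 and 3.17 in Xu142fl, with no overlap. Of the LHY genes on A12 and D12, Gh_A12G134700 thus kept the largest share of its Xu142 level in Xu142fl, 32.8% against 12.03% for Gh_D12G134800 and 6.31% for Gh_A12G134600. Apart from this adjacent pair, no gene listed at -1 DPA lay within 100 kb of a member.

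**Figure D3:**
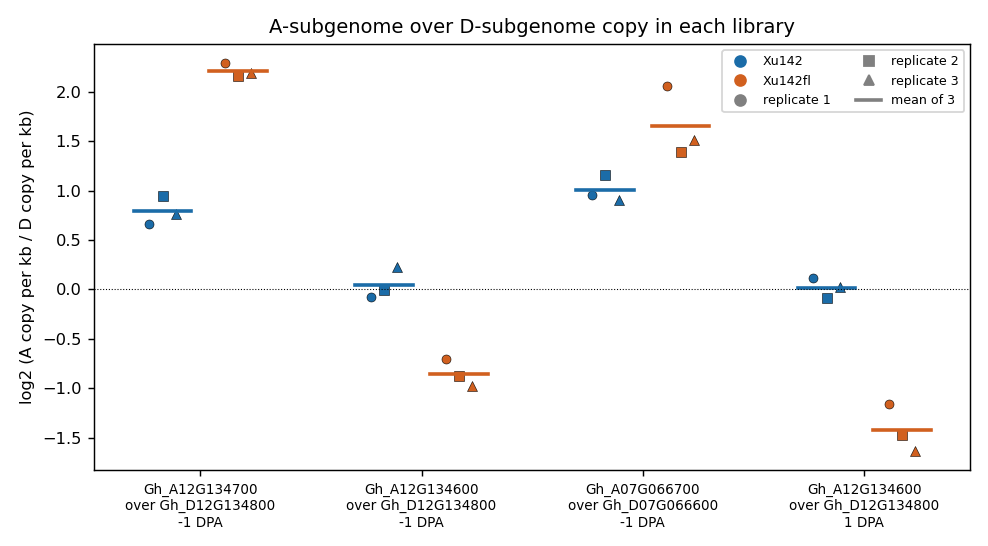
Log2 ratio of the A-subgenome over the D-subgenome copy per kilobase, with a point for each library (blue Xu142, orange Xu142fl), a bar for the mean of 3 and a dotted line at equal levels. The pairs of Gh_A12G134700 and Gh_A07G066700 lie above the line in 6 of 6 libraries, and the pairs of Gh_A12G134600 lie near 0 in Xu142 and below it in Xu142fl.

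Other genes of the clock and of light signalling were found by a list of protein names. At -1 DPA, 13 such genes were listed, 11 lower and 2 higher in Xu142fl, against 45.1% lower among all listed genes. The largest group was the LNK genes, coactivators that in Arabidopsis work with REVEILLE proteins and link light to the clock. All 8 listed LNK genes were lower, with log2 ratios from -7.98 to -1.56 and a median of -2.29. LNK3 Gh_D05G285300 stood at 71.9, 53.0 and 131.6 normalised reads in Xu142, and at 0, 1.02 and 0 in Xu142fl. LNK1 Gh_A13G071000 stood at 223, 180.3 and 299 in Xu142 and at 68.1, 69.1 and 65.5 in Xu142fl. The groups were apart in both genes.

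The other lower genes were 2 named CONSTANS-LIKE 5, B-box zinc finger proteins, and 1 named CYCLIC DOF FACTOR 3, of a family that represses CONSTANS in Arabidopsis. Their log2 ratios were -1.39 ± 0.22 (Gh_D08G027200), -1.17 ± 0.16 (Gh_A08G027800) and -1.81 ± 0.27 (Gh_A12G200100). The higher genes were LIGHT-DEPENDENT SHORT HYPOCOTYLS 6 (Gh_D03G159300), with a log2 ratio of 1.63 ± 0.24, and a casein kinase II beta subunit. Casein kinase II phosphorylates CCA1 and LHY in Arabidopsis. Its subunit Gh_D11G081200 stood at 7.47, 13.5 and 11.5 normalised reads in Xu142 and at 252, 255 and 216 in Xu142fl at -1 DPA. It was the single gene of the list at 0 DPA, higher by 4.52 ± 0.21 on the log2 scale, and was again higher by 4.70 ± 0.36 at 1 DPA. The direction of these 13 genes was the same under edgeR's TMM and DESeq2's listed-gene size factors, and 1 call was lost, that of Gh_D03G159300 at 0.52 with a DESeq2 adjusted p of 1. Both scalings lowered the ratios at -1 DPA, so the genes already lower could not lose their direction.

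**Figure D4:**
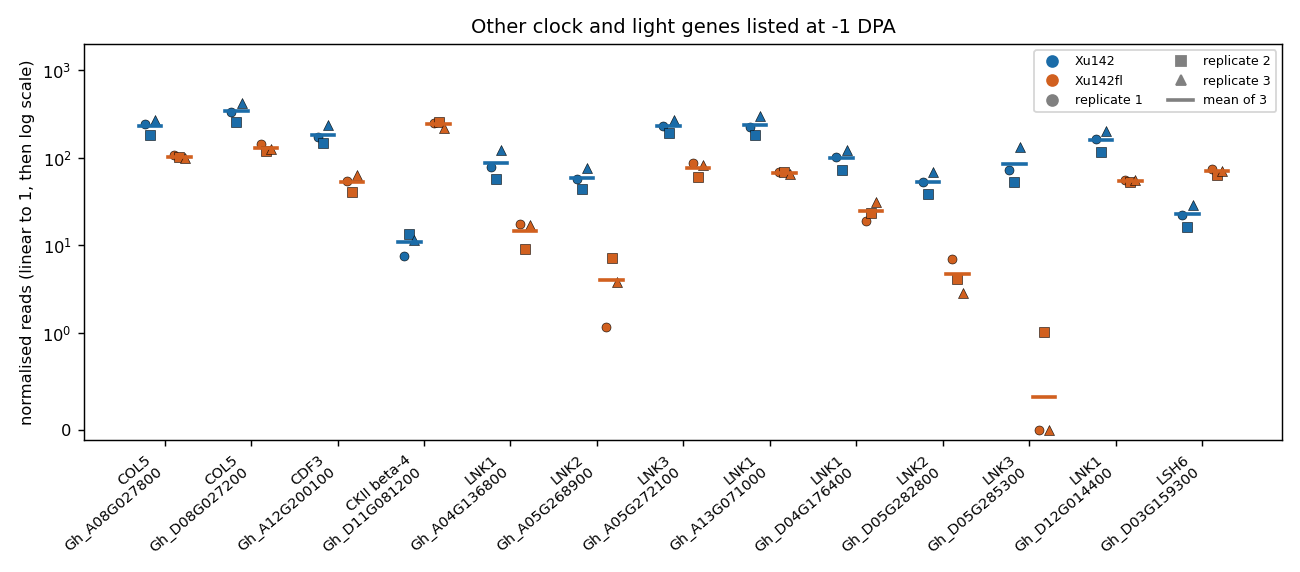
Normalised reads (axis linear to 1, logarithmic above) of the 13 other clock and light genes listed at -1 DPA, with a point for each library and a bar for the mean of 3 per genotype. In 11 genes the Xu142 points (blue) lie above the Xu142fl points (orange), and the casein kinase II subunit and the LSH6 gene show the opposite order.

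At 1 DPA the same list gave 42 genes, 16 lower and 26 higher in Xu142fl, where 67.5% of all listed genes were lower. None was an LNK gene. All 6 listed genes named TIME FOR COFFEE, a nuclear regulator of clock amplitude in Arabidopsis, were higher, with log2 ratios from 1.26 to 1.55. The example Gh_A09G239300 stood at 572, 888 and 819 normalised reads in Xu142 and at 1369, 2891 and 2430 in Xu142fl, without overlap. Of the evening complex, which represses clock genes at dusk, the LUX gene Gh_D05G091600 was lower at -1.33 ± 0.16 and the EARLY FLOWERING 3 gene Gh_A05G120000 was higher at 1.20 ± 0.25. Among 3 ELF4-like genes 1 was lower and 2 were higher. The light signalling repressor COP1 (Gh_D10G010700) was lower at -3.24 ± 0.17, and both listed PIF3 genes and both listed CYCLIC DOF FACTOR 2 genes were higher, by 1.03 to 1.10 on the log2 scale. Under either factor set from the listed genes, 5 of the 16 lower genes passed, and LUX was at -0.13 with TMM factors and -0.09 with DESeq2's factors. The 26 higher genes all passed under both, and 1 lower gene, Phytochrome E (Gh_A10G030600), changed sign to 0.02 with DESeq2's factors. Both scalings raised the ratios at 1 DPA, so higher genes had to pass. Of the 7288 genes listed as lower, TMM factors left 2411 called lower and DESeq2's factors 2486. The loss of lower calls in this list was thus near that of all listed genes. Nothing is read from the split of directions, which was not tested.

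Genes known in leaves as outputs of the clock were mostly lower too at -1 DPA. Of 7 listed, 6 were lower, namely 3 chlorophyll a-b binding proteins, 2 early light-induced proteins and 1 galactinol synthase, and a DREB-type cold response factor was higher. Of all genes listed at -1 DPA, 45.1% were lower. At 0 DPA 3 of 5 were lower, with a galacturonosyltransferase-like gene matched through a synonym, and at 1 DPA 20 of 26 were lower, against 63.3% and 67.5% of all listed genes. Markers of green tissue (photosystem, chlorophyll a-b binding and ribulose bisphosphate carboxylase genes) were lower in 9 of 9 cases at -1 DPA, in 9 of 9 at 0 DPA and in 26 of 40 at 1 DPA, the last close to the 67.5% of all listed genes. Their summed level at -1 DPA was 807 to 1516 normalised reads in Xu142 and 284 to 354 in Xu142fl. The chlorophyll a-b binding genes count in both the output and the green tissue list, so these lists are not independent. Fewer green cells and less RNA per cell cannot be told apart in whole ovules, and the part of green tissue in the clock gene values was not tested. At -1 DPA the calls of both lists were the same with edgeR's TMM and DESeq2's listed-gene factors, but not on the later days. Of the green genes at 0 DPA, refits with the deposited factors called 4 lower with edgeR and 9 with DESeq2, and either rescaling called 0. At 1 DPA either rescaling called 3 green genes lower and 14 higher, so that the balance turned, and 3 output genes lower and 6 higher. At 0 DPA either rescaling called 0 output genes lower and 2 higher. The balance of calls turned over all listed genes too. At 1 DPA 2411 of 5916 called genes were lower with TMM and 2486 of 5991 with DESeq2's factors. At 0 DPA these were 303 of 804 and 306 of 808.

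Other marker lists moved too. Genes matched by pollen terms were lower in 2 of 5 cases at -1 DPA, 9 of 10 at 0 DPA and 35 of 42 at 1 DPA, a list that took in cuticle genes through synonyms. Of all genes listed on these days, 45.1%, 63.3% and 67.5% were lower. The pollen genes called lower were 2 with TMM and 1 with DESeq2's listed-gene factors at 0 DPA, and 20 with either at 1 DPA. Seed storage genes were not listed at -1 DPA and were lower in 2 of 2 cases at 0 DPA and 4 of 7 at 1 DPA, and either rescaling called 0 lower at 0 DPA and 2 lower and 3 higher at 1 DPA. Of the ovule and epidermis list, 2 of 2 genes were lower at -1 DPA, both PROTODERMAL FACTOR 2, 2 of 3 at 0 DPA and 4 of 21 at 1 DPA, when the other 17 were higher. At 1 DPA rescaling called 1 gene of this list lower with TMM and 2 with DESeq2's factors, and 17 higher with either. As a check of the tissue label alone, and not of a difference, the ovule identity gene AGL11 (Gh_D05G274800) was listed at 1 DPA. It stood at 2201 to 2550 normalised reads in Xu142 and 961 to 1309 in Xu142fl. The part of these tissues in the member values was not tested.

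The replicates of Xu142 at -1 DPA did not vary independently between members. In all 8 members replicate 2 was lowest, replicate 1 in the middle and replicate 3 highest, a pattern noticed after the data were seen. The same order held in all 11 other clock and light genes that were lower in Xu142fl and in all 9 green tissue genes. Among all listed genes it held in 28.9%, and among the listed genes lower in Xu142fl in 42.2%. Replicate 3 exceeded replicate 2 by a median of 1.55-fold over the members and 2.05-fold over the green tissue genes. Over the listed genes lower in Xu142fl the median was 1.08-fold. In Xu142fl 1 of the 8 members had that order. The members thus shared their deviations within Xu142, and whether the hour of collection differed between libraries was not tested.

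**Figure D5:**
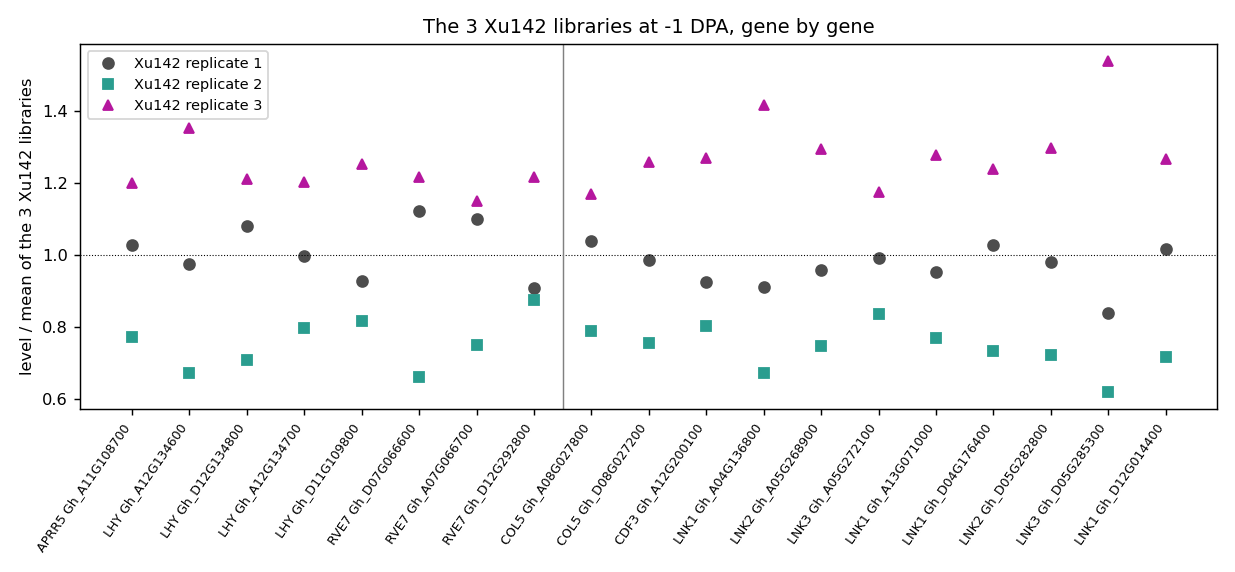
Level of each of the 8 members (left of the line) and of the 11 other lower clock and light genes (right) in the 3 Xu142 libraries at -1 DPA, divided by their mean, on a linear axis. Replicate 2 (squares) is lowest and replicate 3 (triangles) highest in each of the 19 genes.

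Leaving out any 1 library left all 8 members at -1 DPA and all 5 at 1 DPA past the threshold in edgeR's quasi-likelihood refits of the listed genes. This includes replicate 3 of Xu142, the highest library of each member at -1 DPA. The same refits called 858 to 872 of all 872 listed genes at -1 DPA and 8350 to 10241 of 10793 at 1 DPA. They retest the contrast that chose the genes, so the member counts are no separate support.

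The genes whose pattern was most like that of the LHY genes were sought among the 700 genes listed at both -1 and 1 DPA, over 12 libraries. The likeness was Pearson's r of log2(normalised reads + 1) with the mean of the LHY genes listed on both days, and it is a description, since the 12 libraries fall into 4 groups by genotype and day. The highest were Glycine-rich protein 2 (Gh_A03G233200, r = 0.98) and ACCELERATED CELL DEATH 6 (Gh_D04G211300, r = 0.98). By rank the latter was less alike (Spearman's rho 0.87, against 0.92 to 0.97 for the other genes named here as most alike). An unnamed transcript, TMV resistance protein N (Gh_D03G185000) and the acyl-activating enzyme AAE7 (Gh_A09G081900) followed, each with r = 0.97. Gh_A03G233200 had means of 653 and 154 normalised reads in Xu142 and Xu142fl at -1 DPA and of 363 and 119.7 at 1 DPA. The most opposite was the beta subunit of pyrophosphate-dependent phosphofructokinase (Gh_A10G001300, r = -0.99), at 20.6 and 241 at -1 DPA. The median size of r over the 700 genes was 0.84, so a high r was common, and APRR5 had r = 0.89.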

How the data were processed

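RNA of ovules was sequenced in 18 libraries, 3 in each of 6 groups, grouped and numbered as their titles say. For each day the authors deposited 1 table, whose library columns hold a signal, read counts per gene divided by 1 factor per library. This was read from the values, since 100% of them gave whole reads within 0.001, with divisors from 0.733 to 1.76. Per the file headers, the authors also deposited a log2 fold change of Xu142 over Xu142fl, whose sign was turned here, raw and adjusted p-values, and gene positions and lengths. What aligner, counter, test, strand setting and build the authors used is not given in the sources used here.

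Members are the listed genes whose full protein name holds Protein LHY, REVEILLE or APRR. The members and the lists were chosen with earlier results of these data known. Each member was described with its value in each library. Named first were members listed on more than 1 day, A and D pairs, and the genes with the largest and smallest ratio and the highest mean in each family. The numbers of genes tested, 58161, 57326 and 61474 at -1, 0 and 1 DPA, follow from how far the authors had adjusted each p-value. Because the tables hold called genes only, the planned test of raw counts over all genes could not be made, and the authors' calls stand in its place. Total library depth is unknown.

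Refits of the recovered reads of the listed genes used edgeR 4.0.16 (quasi-likelihood), DESeq2 1.42.0 and limma 3.58.1 in R 4.3.3, adjusted by Benjamini-Hochberg over as many genes as the authors had tested, and were tested on simulated data. Copies were compared after adding 0.5 reads, with the exact sign-flip test in Python 3.11.15. The likeness search was planned over 18 libraries and was run over 12, since no LHY gene is listed at 0 DPA. The LUX search term was applied as a whole word, and the heading date term took in 3 genes for HD16 casein kinase 1-like proteins.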

Additional observations from a re-analysis of the deposited data

How the results depend on the processing

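No member changed direction under any of the alternatives run. The count of members lower at -1 DPA stayed at 8, except for limma on log2(value + 0.1), which gave 6 and lost REVEILLE 7 Gh_A07G066700 (limma adjusted p = 0.0549) and Gh_D12G292800 (0.0529), a setting added after the data were seen, and for counting 1 gene per A and D pair, which by construction gave 6. At 1 DPA the count of lower members went from 4 to 1 with TMM factors and to 2 with DESeq2's size factors from the listed genes. Because factors set from called genes pull the median of those genes toward no difference, these counts cannot decide which calls hold. The authors' deposited fold change, smaller than the ratio of means, moved 7 of 13 member ratios by more than their spread, all at -1 DPA. There LHY Gh_A12G134600 was at -2.42, behind LHY Gh_D12G134800 at -2.54, and REVEILLE 7 Gh_D07G066600 was at -1.20 (log2, sign turned). TMM factors moved 5 of the 13 ratios, and DESeq2's listed-gene factors moved 13. The replicate block in edgeR's fit left the members called lower at 8 and 4. The deviations of same-numbered libraries correlated at 0.006 to 0.040 (-1 DPA) and -0.020 to 0.060 (1 DPA). Those of libraries with unlike numbers correlated at -0.039 to 0.017 and at -0.115 to 0.125. On the days with members no clear pairing was seen, and these values over called genes cannot exclude a shared batch. At 0 DPA, with no member listed, same-numbered libraries correlated at 0.097 to 0.189, a hint of pairing from the data that not every pair carries past 0.1.

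The A over D differences kept their sign but not their call in smaller or unpaired tests. For LHY Gh_A12G134700 over Gh_D12G134800 the unpaired exact test gave 1.50 with p = 0.0931, and the value was 0.79 in Xu142 alone and 2.21 in Xu142fl alone. For REVEILLE 7 the unpaired exact p was 0.102 (difference 1.33), with 1.01 in Xu142 alone and 1.66 in Xu142fl alone. With 3 libraries no exact p can fall below 0.25. Leaving out 1 library gave 1.34 to 1.67 and 1.19 to 1.42, each at the smallest exact p that 5 libraries allow, 0.0625. For LHY Gh_A12G134600 over Gh_D12G134800 the sign turned in Xu142 alone, to 0.046 at -1 DPA and 0.017 at 1 DPA. Depth limits the low REVEILLE 7 values most, and genes outside the tables could not be assessed.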

Other observations

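Several listed genes lie near members on the deposited coordinates, each in the table of 0 or 1 DPA. HDG11 Gh_D12G292500, a homeodomain factor of the epidermis, lies 21.8 kb from REVEILLE 7 Gh_D12G292800. It stood at 587 ± 47.7 normalised reads (SD, n = 3) in Xu142 and 30.3 ± 19.5 in Xu142fl at 0 DPA, and at 707 ± 39.5 in Xu142 at 1 DPA, when it was listed at 0 in all Xu142fl libraries. Genes named bHLH67 lie near both an APRR and an LHY gene. Gh_A11G109000 is 61.8 kb from APRR5 Gh_A11G108700, and Gh_D11G109400 and Gh_D11G109300 are 46.2 kb and 96.0 kb from LHY Gh_D11G109800. All 3 were higher in Xu142fl at 1 DPA, by 1.05, 1.07 and 1.17 on the log2 scale. APRR5 was lower at -1 and 1 DPA, and Gh_D11G109800 was listed, as lower, at -1 DPA only. The other listed neighbours were lower at 1 DPA, at -1.03 near APRR5 and from -4.58 to -1.14 near Gh_D11G109800. On that day 17.6% of tested genes were listed. Tobamovirus multiplication protein 2A (Gh_A08G183400) lies 3.71 kb from APRR2 Gh_A08G183500 and was also lower at 1 DPA, with a log2 ratio of -1.60.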
